A study of Mus musculus with 6 samples.

Results

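RUNX1 binding was examined at the genes for collagen chains, laminin chains and integrin subunits in mouse granulosa cells. The genes were chosen by symbol: protein-coding genes of the RefSeq table on GRCm38.p6 named as a collagen alpha chain, as a laminin alpha, beta or gamma chain, or starting with Itga or Itgb. The rule gave 83 of the 21896 protein-coding genes in the table, made up of 44 collagen genes, 11 laminin genes, 18 integrin alpha genes and 10 genes starting with Itgb. One of the last group, Itgb3bp, encodes a nuclear protein and no integrin subunit, and it was kept because the rule takes it in. The rule uses no measured value. A ChIP-seq peak was assigned to a gene when its summit lay inside the gene or within 10 kb of either end, which is called the gene's window.

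The animals of both groups were F1 mice of a CBA by C57BL/6 cross, 21 days old, primed with 5 IU of eCG, a gonadotropin that drives follicle growth. The 0 h group holds granulosa cells of pre-ovulatory follicles, collected at 0 h relative to hCG, and the 6 h group holds cells of peri-ovulatory follicles, taken 6 h after 5 IU of hCG given 46 h after eCG. hCG stands in for the surge of luteinising hormone that starts ovulation. Each group has 2 RUNX1 ChIP libraries. A pooled input per time point entered only through the peak calls, so 4 of the 6 samples carry the values below. The labels give the same treatment text for every sample, ending with collection at 6 h, so only the sample titles and a time label set the 0 h group apart. They do not say whether replicates came from separate animals, so the spread between replicates may be technical. Peak lists carry no expression values, and the granulosa label could not be checked against marker genes.

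Laminins and most collagens are secreted trimers that build the extracellular matrix, while some collagens span the cell membrane. Type IV collagen and laminin form the networks of basement membranes, and the granulosa layer of a follicle rests on such a membrane, which is remodelled when the follicle ruptures and the wall becomes a corpus luteum. Integrins are paired alpha and beta subunits in the cell membrane that bind matrix proteins outside the cell and the actin cytoskeleton inside. RUNX1 is a DNA-binding transcription factor whose core recognition letters are TGTGGT or TGCGGT.

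The lists differed in length far more between time points than between replicates, and every count below has to be read against that. They held 948 and 3135 peaks at 0 h and 18761 and 28671 peaks at 6 h. The commonest background, the reads expected at a site by chance and a measure of usable depth, was 2.77 and 2.65 reads before hCG and 2.76 and 2.13 reads after it. The longest list had the lowest background. A pileup, the number of reads over a summit, could be recovered from the deposited fold enrichment and p-value for 100% of the peaks. The lowest pileup called was 20, 19, 19 and 17 reads in the same order. A gene without a peak may hold a weaker site that was not detectable at this depth.

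Peaks near the 83 genes were many more at 6 h, in step with the lists as a whole. There were 5 peaks in 0 h replicate 1, 17 in 0 h replicate 2, 99 in 6 h replicate 1 and 160 in 6 h replicate 2. Both 6 h values lay above both 0 h values. On the log2 scale the mean was 3.20 ± 1.25 before hCG and 6.98 ± 0.490 after it (SD over 2 libraries each), a ratio of 13.7, with p = 0.333 by an exact two-sided permutation test over libraries. That is the smallest p that 2 libraries against 2 can give, so no comparison of time points here could pass 0.05.

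As a share of its list, binding near these genes was almost the same in all libraries. It made up 0.527% and 0.542% of the peaks at 0 h and 0.528% and 0.558% at 6 h, with exact Clopper-Pearson 95% intervals, which cover counting error only, of 0.171% to 1.23%, 0.316% to 0.867%, 0.429% to 0.642% and 0.475% to 0.651%. The difference of the means, 6 h minus 0 h, was 0.00803 percentage points (exact permutation p = 0.667), less than the spread within either time point. When each list was reduced to its 948 peaks of lowest p-value, the log2 peak number near the genes was -0.208 from 0 h to 6 h, in place of 3.77. The rise in number was therefore not seen among equally long lists.

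Per Mb of window, pooled over genes of all lengths, peaks were sparser along these genes than along other coding genes at both times. Density falls with gene length and these genes are long, so the values by length are given further on. Their windows covered 10.6 Mb and carried 0.473, 1.61, 9.36 and 15.1 peaks per Mb in the 4 libraries, against 0.573, 2.11, 12.4 and 18.1 per Mb for the 1278 Mb of other coding windows. The density ratio was 0.825 and 0.762 before hCG, then 0.755 and 0.838. It was below 1 in 4 of 4 libraries, and the time points overlapped (log2 difference 0.00459, exact permutation p = 1). The bars of list share and density show this flat course beside the lengthening lists.

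**Figure D1:**
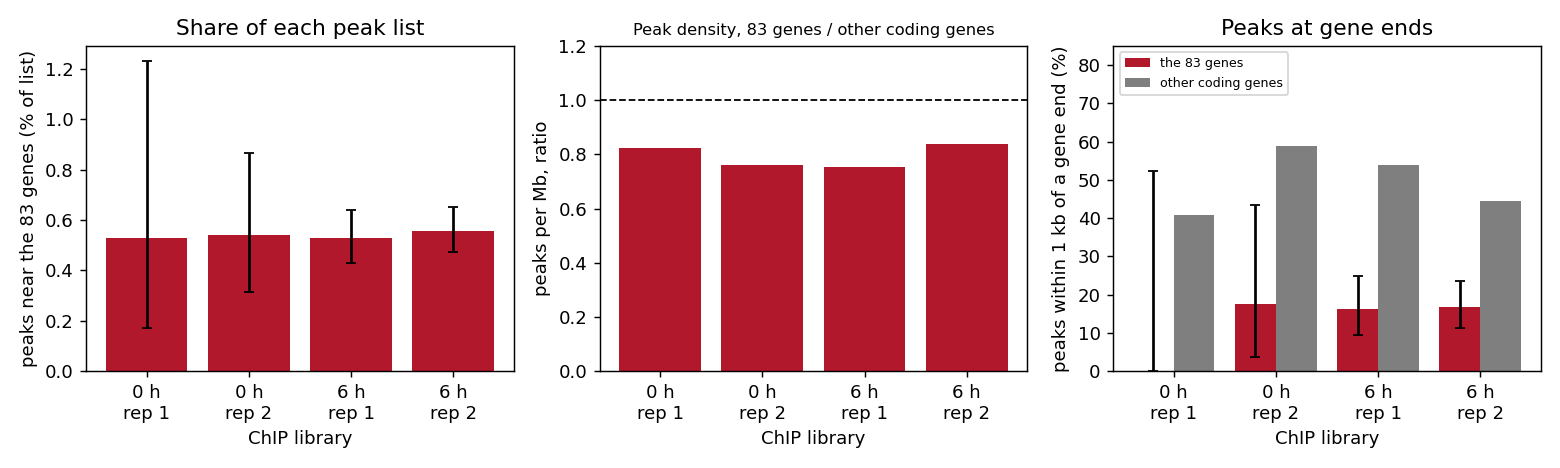
Peak measures in each of the 4 RUNX1 libraries. Left, peaks near the 83 genes as a percent of the list, with exact 95% intervals; middle, peaks per Mb in their windows divided by that of other coding genes, with a dashed line at 1; right, percent of peaks within 1 kb of a gene end for the 83 genes (red, with exact 95% intervals) and other coding genes (grey). List shares lie between 0.527% and 0.558%, density ratios lie below 1, and each red bar of the right panel is lower than its grey neighbour, the first standing at 0. Red bars of that panel count ends of the 83 genes only, and grey bars ends of any other coding gene.

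In the 4 lists 5, 14, 42 and 52 of the 83 genes had a peak, beside 4.40%, 15.1%, 53.7% and 62.5% of all coding genes. A replicated region joins overlapping peaks called in each of the 2 libraries of 1 time point. Such a region was found at 0 h near 5 of the 83 genes (6.02%, 95% interval 1.98% to 13.5%), beside 4.09% of all coding genes. At 6 h it was found near 41 (49.4%, interval 38.2% to 60.6%), beside 53.1% of all coding genes. Both shares lie close to those of coding genes in general. With 0 h replicate 1 left out, 14 genes had a 0 h peak in the remaining list (16.9%, beside 15.1%), so the short list decides the count at 0 h. By family, a 6 h region was found near 18 of 44 collagen genes, 7 of 11 laminin genes, 9 of 18 integrin alpha genes and 7 of 10 genes starting with Itgb.

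The 41 genes shared 88 regions at 6 h, or 8.32 per Mb of window, against 11.3 for other coding genes of all lengths. Integrin beta windows carried 23.8 regions per Mb and integrin alpha windows 12.6, while laminin windows carried 7.27 and collagen windows 5.44. The families were not matched for gene length. The regions were unevenly spread. A single region was found at 23 genes, 2 regions at 8 genes, and at least 5 at 6 genes (7.23%, beside 2.03% of all coding genes). These 2 shares are not matched for gene length, whose median was 75.5 kb for the 83 and 17.1 kb for all coding genes. Those 6 genes, Col4a1, Col4a2, Itga9, Itgb3, Itgb5 and Lama1, together had 36 of the 88 regions (40.9%). At the other extreme, 30 genes had no peak in any list (36.1%, beside 37.1%). The plot of peaks per gene shows the 45 genes with at least 2 peaks over the 4 lists.

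**Figure D2:**
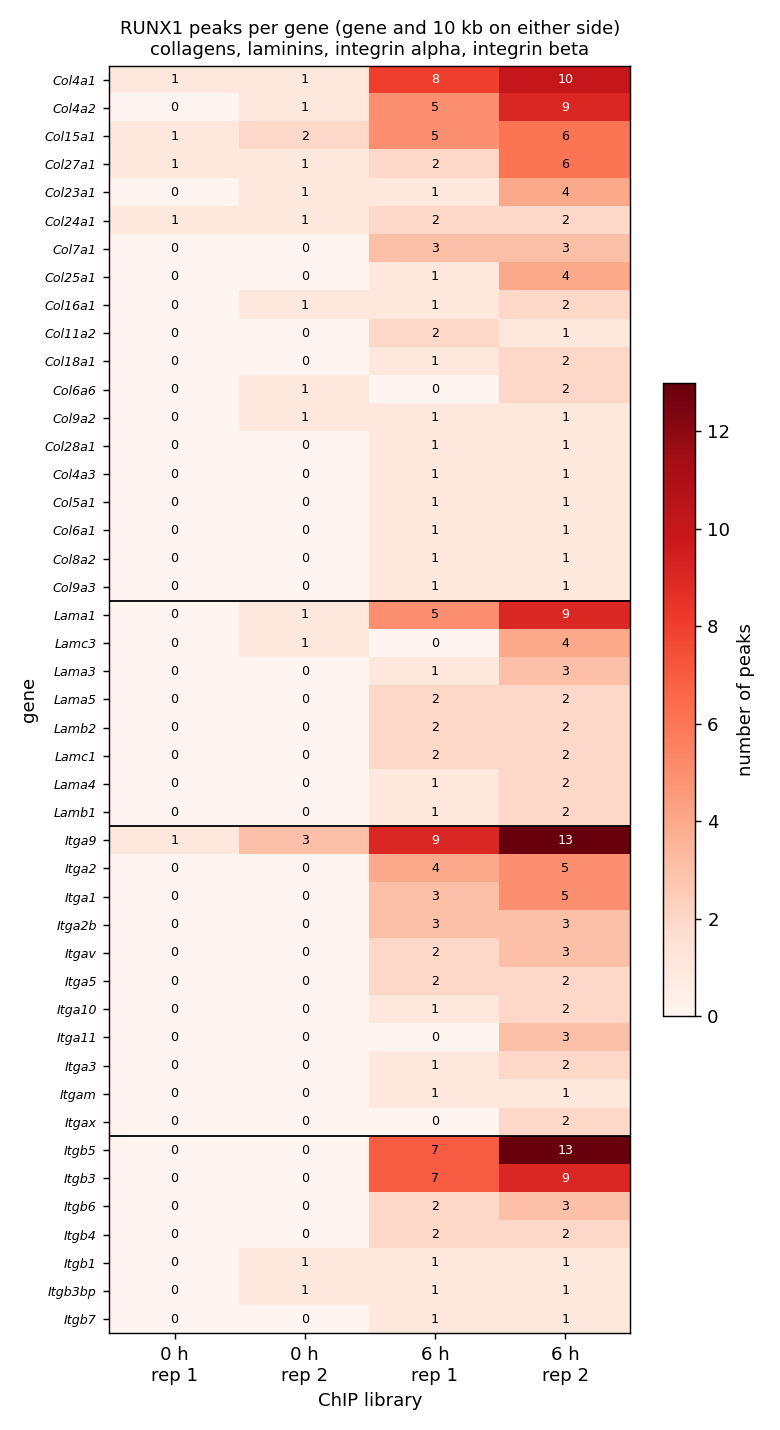
Number of peaks in the window (colour and printed value) of the 45 genes with at least 2 peaks over all lists, in each of the 4 libraries, grouped by family. Itga9, Itgb5, Col4a1, Itgb3, Lama1 and Col4a2 hold the highest 6 h counts, and most genes have 0 peaks at 0 h.

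Among collagens, binding was concentrated on a few genes. Of the 11 fibrillar collagens, which form the banded fibres of connective tissue, 6 had no peak in any list: Col1a1, Col1a2, Col2a1, Col3a1, Col5a2 and Col5a3. These include the chains of types I and III, the main fibre collagens of stroma. The fibrillar genes with a 6 h region were Col5a1, Col11a2, Col24a1 and Col27a1. Of the 6 type VI genes, whose chains form beaded filaments, only Col6a1 had a region, and Col6a2, Col6a4 and Col6a5 had no peak. Of the 9 fibril-associated collagens, which decorate larger fibres, Col9a2, Col9a3 and Col16a1 had a region, while Col9a1, Col12a1, Col14a1, Col19a1, Col20a1 and Col22a1 had no peak. Col4a4, Col4a5, Col4a6, Col10a1, Col13a1, Col17a1 and Col26a1 also had none.

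Col4a1 and Col4a2, which encode the type IV chains found in nearly all basement membranes, lie head to head on chromosome 8. Col4a1 had 1 and 1 peaks at 0 h and 8 and 10 at 6 h, with 7 replicated regions, or 5.21 per 100 kb of window. Col4a2 had 0 and 1 peaks at 0 h and 5 and 9 at 6 h, with 5 regions. One of these, chr8:11312247-11313199, covers the promoter shared by the pair and was counted for both genes. Its fold enrichment, the authors' ratio of ChIP reads to local background, was 10.4 in 6 h replicate 1 and 10.2 in replicate 2, at a mean percentile of 55.9 among the peaks of its lists. The site of highest fold lay instead deep inside Col4a2, 66805 bp from its nearer end, at chr8:11381508-11382869. There the fold was 40.5 and 61.2 at 6 h, a mean percentile of 99.6, and 6.57 in 0 h replicate 2 alone. In Col4a1 the site of highest fold, chr8:11258518-11258993, lay 54148 bp from an end and reached 20.2 and 32.8 at 6 h with no peak at 0 h. Col4a3, a type IV chain of specialised basement membranes, had a single weak region 2933 bp outside the gene, at the end of the neighbouring gene Mff, with folds of 4.74 and 6.10.

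Col15a1, whose multiplexin collagen sits at the border of basement membranes, held the region of highest mean percentile among the 83 genes. It had 1 and 2 peaks at 0 h and 5 and 6 at 6 h, with 4 regions. The region chr4:47292974-47294804, 19250 bp from an end of the gene, had a fold of 48.2 and 60.1 at 6 h, a mean percentile of 99.7. It was also called in both 0 h lists, at folds of 12.6 and 13.8. Col18a1, the other multiplexin and the source of endostatin, had 1 region, 66 bp from an end, with folds of 9.17 and 17.5.

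Col28a1, encoding a collagen with von Willebrand factor A domains, had 0 peaks at 0 h and 1 peak in each 6 h list. That peak lay 87759 bp inside the gene at chr6:8105604-8106278, with folds of 21.8 and 47.9. Col27a1 and Col24a1, both fibrillar, had peaks in all lists, 1, 1, 2 and 6 for Col27a1 and 1, 1, 2 and 2 for Col24a1. The highest fold of Col27a1 at 6 h was 19.2 and 31.3, and that of Col24a1 13.2 and 21.0. Col9a2, encoding a type IX chain carried on cartilage fibrils, had 0 and 1 peaks at 0 h and 1 and 1 at 6 h, with 6 h folds of 16.3 and 22.4 at 1651 bp from an end.

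Part of the collagen signal lay at the ends of other genes. The only Col11a2 region, at chr17:34030937-34032572 with folds of 15.2 and 20.6, was 6954 bp outside Col11a2 and 153 bp from an end of Rxrb, a nuclear receptor gene. Col7a1, which encodes the anchoring fibril collagen of skin, had 3 peaks in each 6 h list and none at 0 h. Of its 3 regions, 2 lay inside the neighbouring gene Pfkfb4, and the third lay 2245 bp from an end inside Col7a1 with folds of 8.73 and 15.2. Which gene such a site acts on was not tested. Across the 88 regions, 15 lay within 1 kb of an end of another coding gene, and 12 of these (13.6%) did not lie at an end of a collagen, laminin or integrin gene. With the peaks removed that lay at an end of another coding gene and not at an end of one of the 83, 76 regions were left and 34 of the 83 genes had a 6 h region (41.0%). The removal was made only in the windows of the 83 genes, so the 53.1% of coding genes is no match for this share.

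Laminins are trimers of an alpha, a beta and a gamma chain. The alpha chain genes Lama1, Lama3, Lama4 and Lama5 had a region at 6 h, as did Lamb1 and Lamb2 and, of the gamma chains, Lamc1. Lama2 and Lamc3 had a peak in no more than 1 of the 6 h lists, and Lamb3 had none in any list. No laminin gene had a replicated region at 0 h (0 of 11, interval 0% to 28.5%). The interval includes the 4.09% of all coding genes. Lama1, the alpha chain of the laminin of early embryonic membranes, had 0 and 1 peaks at 0 h and 5 and 9 at 6 h, with 5 regions. Its highest fold was 10.8 and 17.4, at chr17:67787120-67787597, 35339 bp inside the gene. Lamb2 had 2 peaks in each 6 h list and none at 0 h. Its region of higher mean percentile, chr9:108490616-108491373 with folds of 16.0 and 19.9, lay 284 bp outside Lamb2 and 207 bp from an end of Usp19, inside that gene. The other, 1717 bp outside Lamb2, had folds of 12.2 and 21.2. Lamc1, the gamma chain of most laminins, had a region 86 bp from an end with folds of 9.49 and 16.4, and Lamb1 a region 6366 bp inside with folds of 11.1 and 27.4.

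By regions per Mb, genes starting with Itgb were the densest of the families, with no matching for gene length. Their median length was 54.9 kb, beside 56.4 kb for integrin alpha, 64.5 kb for laminin and 114 kb for collagen genes. Of their 19 regions, Itgb3 and Itgb5 held 6 each. Itgb3, the beta subunit of the platelet fibrinogen receptor and of a vitronectin receptor, had 0 peaks in both 0 h lists and 7 and 9 at 6 h, giving 6 regions or 7.27 per 100 kb. Its highest site, chr11:104611310-104612467, lay 3795 bp inside the gene, with folds of 29.7 and 52.0. A second, chr11:104613440-104614931, followed within the same intragenic stretch at folds of 16.2 and 26.5. The region at an end of Itgb3, 69 bp from it, was weaker, with folds of 8.46 and 9.38.

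Itgb5, which pairs with Itgav in another vitronectin receptor, had 0 and 0 peaks at 0 h and 7 and 13 at 6 h, with 6 regions. Its highest site was at the transcription start: chr16:33829237-33830661 had its summit 22 bp from the end of the gene and folds of 16.5 and 26.7. Itgb6, a beta subunit of epithelia that pairs with Itgav and activates latent TGF-beta, had 0 peaks at 0 h and 2 and 3 at 6 h, with its highest site 33464 bp from an end and folds of 16.5 and 27.9. Itgb1, the beta subunit shared by most collagen and laminin receptors, had a single region, 349 bp from an end, with folds of 15.3 and 20.2 at 6 h and 5.44 in 0 h replicate 2. Itgb2 and Itgb2l, of the leukocyte class, had no peak in any list. Itgb3bp had 1 region, 57 bp from its own end and 287 bp from an end of Efcab7. Without it, 40 of the remaining genes had a 6 h region (48.8%).

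Among integrin alpha genes, Itga9 stood out by number. Its product pairs with the beta 1 subunit and binds tenascin and other ligands. Itga9 had 1 and 3 peaks at 0 h and 9 and 13 at 6 h, and its 8 regions were the most of any of the 83 genes. Its highest region by percentile, chr9:118885594-118886278, had folds of 15 and 29.3 at 6 h with no peak at 0 h. Itga2b, the platelet alpha subunit that pairs with Itgb3, had 0 peaks at 0 h and 3 in each 6 h list, at 8.20 regions per 100 kb the densest gene with at least 3. Those sites were modest, the highest having folds of 10.7 and 11.6, and 1 of the 3 lay inside the neighbour Fam171a2. The collagen receptor subunits Itga1, Itga2 and Itga10 had a region, as did Itgav and Itga5, which bind ligands with the RGD tripeptide. Itga6, the main laminin receptor subunit of epithelia, had no peak in any list, nor did Itga4, Itga8, Itgad and Itgal.

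At the strongest region of each of the 12 genes of highest mean percentile, the fold was higher in 6 h replicate 2 than in replicate 1. This order is not particular to them: the median fold of all peaks near the 83 genes was 10.6 in replicate 2 and 8.46 in replicate 1. The 12 genes ran from Col15a1 at 99.7 to Col11a2 at 85.4. Sites of very high fold were no more common than elsewhere: 4 of the 88 regions (4.55%) had a mean percentile over 95, against 5.23% of those near all coding genes. The median of the mean percentile was 61.7 near the 83 genes and 58.0 near other coding genes, and the median width was 576 and 631 bp.

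**Figure D3:**
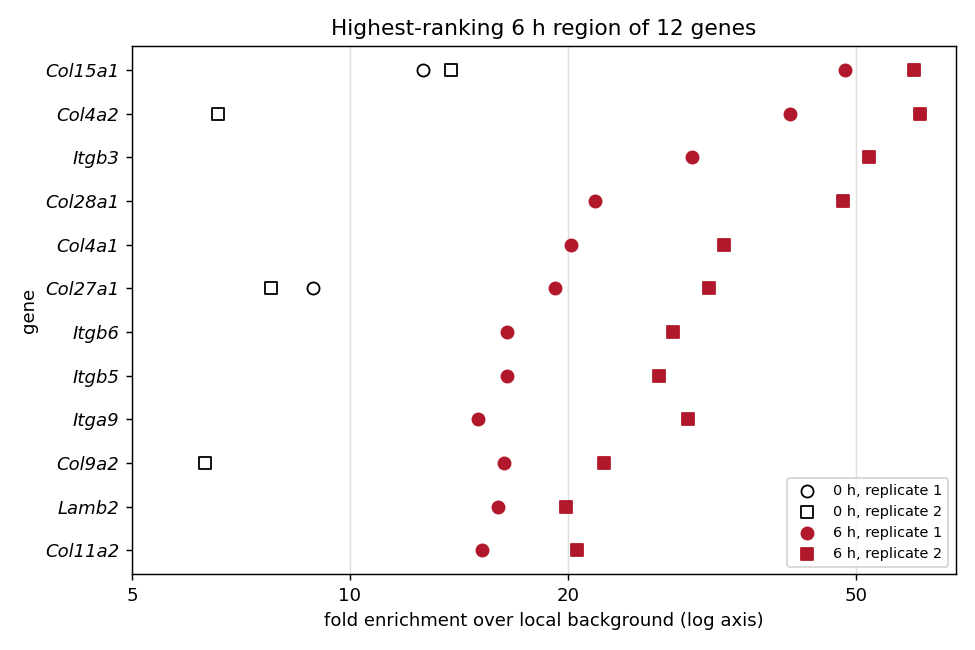
Fold enrichment, the authors' value, at the strongest 6 h region of each of the 12 genes with the highest mean percentile, in the 2 libraries at 6 h and, where called, at 0 h. Col15a1, Col4a2 and Itgb3 reach the highest values, and 6 h replicate 2 lies above replicate 1 at each site.

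The 5 genes with a replicated region at 0 h were Col4a1, Itga9, Col15a1, Col27a1 and Col24a1, and every one of these regions lay inside its gene, 19272 bp or more from the nearer end. All 5 regions overlapped a replicated 6 h region, beside 96.1% of the 0 h regions near all coding genes. The 0 h regions were 478, 414, 543, 266 and 250 bp wide. They differed in rank at 0 h. Col4a1 stood at percentiles 94.0 and 99.0, Itga9 at 95.1 and 95.9 and Col15a1 at 91.3 and 94.8, while Col27a1 stood at 66.3 and 59.6 and Col24a1 at 31.5 and 20.9.

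Reads over these 5 shared sites can be set side by side with the background of each library. At the Col15a1 site the pileup was 48 and 53 reads at 0 h and 233 and 283 at 6 h. Divided by the commonest background, these are 17.3 and 20 at 0 h and 84.4 and 133 at 6 h, a log2 difference of 2.51. The Itga9 site, chr9:118866698-118867524, had 72 and 64 reads at 0 h and 117 and 161 at 6 h, a log2 difference of 1.18 on the background scale. The Col27a1 site had 40, 39, 90 and 121 reads (1.56) and the Col24a1 site 34, 38, 65 and 85 reads (1.21). At these 4 sites both 6 h values lay above both 0 h values.

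The Col4a1 site differed from those in its reads over the commonest background. At chr8:11223008-11223745, 24960 bp inside the gene, the pileup was 54 and 75 reads at 0 h and 58 and 55 at 6 h. Over the background this was 19.5 and 28.3 against 21.0 and 25.8, a log2 difference of -0.0120, and the time points overlapped. Its folds were 14.1 and 20.2 at 0 h and 12.6 and 16.1 at 6 h. Over all 638 shared sites near coding genes the median log2 difference was 1.85, with quartiles of 1.34 and 2.27. The median of the 5 was 1.21. All of these sites had to be called at both times, and no test was made.

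Most 6 h regions near the 83 genes had no counterpart at 0 h. Of the 88, 5 overlapped a replicated 0 h region, beside 4.32% of all 6 h regions near coding genes. A further 6 overlapped a peak of only 1 of the 0 h lists and 77 (87.5%) overlapped none. The share overlapping any 0 h peak was 12.5% (interval 6.41% to 21.3%), beside 16.9% for all coding genes. Without 0 h replicate 2 it was 5.68%, beside 4.64%, so that the order of the share near the 83 genes and the coding share turned. By family, the share was 23.5% for collagens, 0 of 13 regions for laminins, 4.55% for integrin alpha and 10.5% for integrin beta genes. In the other direction, the 5 peaks of 0 h replicate 1 were all called in both 6 h lists. Of the 17 peaks of replicate 2, 11 were called in both, 3 in 1 and 3 in neither, the last being single sites at Lama1, Col15a1 and Itga9.

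The clearest difference from other coding genes was in position. Of the 88 regions at 6 h, 14 (15.9%, interval 8.98% to 25.2%) lay at a gene end, with the summit no farther than 1 kb from it, against 53.7% near other coding genes (53.5% over all). Inside the gene beyond 1 kb lay 55 (62.5%, interval 51.5% to 72.6%), against 37.8%, and 19 (21.6%) lay outside beyond 1 kb, against 8.55%. The median distance to the nearer end was 9158 bp, against 733 bp. Of the 55 inner regions, 43 lay over 10 kb from both ends, and 54 lay over 1 kb from the end of any other coding gene.

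The low share of sites at gene ends was also seen in single libraries. Of the peaks near the 83 genes, 0 of 5 and 3 of 17 (17.6%, interval 3.8% to 43.4%) lay within 1 kb of an end at 0 h, the first with an upper limit of 52.2%. At 6 h these were 16 of 99 (16.2%, interval 9.53% to 24.9%) and 27 of 160 (16.9%, interval 11.4% to 23.6%). For other coding genes the shares were 40.7% and 58.9% at 0 h and 53.9% and 44.5% at 6 h, so that the interval of 3 of the 4 libraries lies below them. Peaks near the 83 genes that lay only at an end of another coding gene do not count as end peaks here, which widens the gap. The time points did not differ beyond their spread (8.82% ± 12.5 before and 16.5% ± 0.504 after hCG, SD over 2 libraries each, exact permutation p = 1).

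Counted by gene, 15 of the 83 had a 6 h region at an end (18.1%, interval 10.5% to 28.0%), beside 37.2% of all coding genes. Here each gene counts only its own ends, on both sides of the comparison. The region shared by Col4a1 and Col4a2 counts for both. These were 6 of 44 collagen genes, 4 of 11 laminin genes, 1 of 18 integrin alpha genes and 4 of 10 genes starting with Itgb. No gene had a 0 h region at an end, beside 1.49% of coding genes. A region inside the gene beyond 1 kb was found at 21 genes (25.3%), beside 15.8%.

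**Figure D4:**
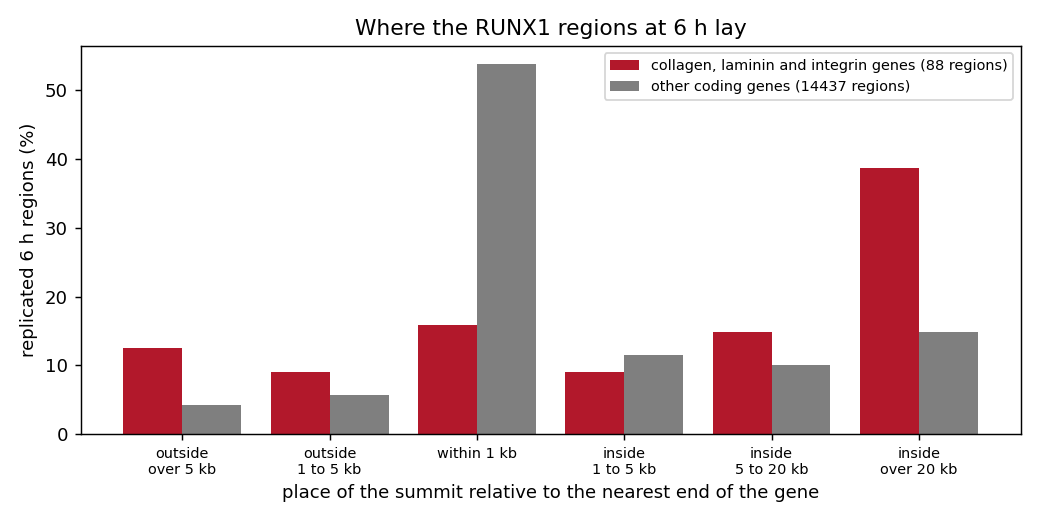
Replicated 6 h regions by the place of the summit relative to the gene, as percent of the 88 regions near the 83 genes and of the regions near other coding genes. The bar within 1 kb of an end stands at 15.9% against 53.7%, and the bar over 20 kb inside the gene at 38.6% against 14.9%. For the 83 genes only their own ends count, and 12 of the 88 regions at an end of another coding gene stand in other bars.

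Gene length moves with these positions, since the 83 genes are long, with a median of 75.5 kb against 17.0 kb. The comparison was therefore repeated in classes of length. In genes up to 30 kb, 2 of 13 regions (15.4%) lay at ends against 63.9% near other genes of that length. In the classes of 30 to 60, 60 to 120 and 120 to 240 kb the shares were 2 of 11 (18.2%) against 49.0%, 6 of 32 (18.8%) against 39.8% and 3 of 20 (15%) against 30.2%. Above 240 kb they were 2 of 13 (15.4%) and 20.3%. The shares were lower than those of other genes in 5 of 5 classes, each of which rests on few regions. Ends of other coding genes again did not count for the 83 genes. Regions per Mb in the 5 classes were 18.9, 10.4, 14.8, 5.86 and 3.91 for the 83 genes and 21.2, 16.9, 12.8, 8.85 and 3.28 for other coding genes, lower in 3 classes and higher in 2.

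Counted by gene, a 6 h region was found near 10 of 17, 7 of 17, 10 of 20, 9 of 20 and 5 of 9 genes in the same classes. These are 58.8%, 41.2%, 50%, 45% and 55.6%, against 47.2%, 63.2%, 67.3%, 67.0% and 58.6% of other coding genes. The 83 genes thus had the higher share only in the shortest class. For a region inside the gene beyond 1 kb the shares were 11.8%, 17.6%, 35%, 35% and 22.2%, against 8.05%, 20.8%, 33.0%, 44.0% and 46.1%, higher in 2 of the 5 classes, so the higher share of genes with an inner region over all lengths (25.3%, beside 15.8% of all coding genes) was not seen in every class. The share of regions that are inner was not computed by class. Among the 83 genes, length and the number of 6 h regions were unrelated in rank (Spearman's rho 0.00747 across 83 genes), whereas rho was 0.260 across the 21813 other genes. Genes are not independent replicates, and these values are descriptions.

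**Figure D5:**
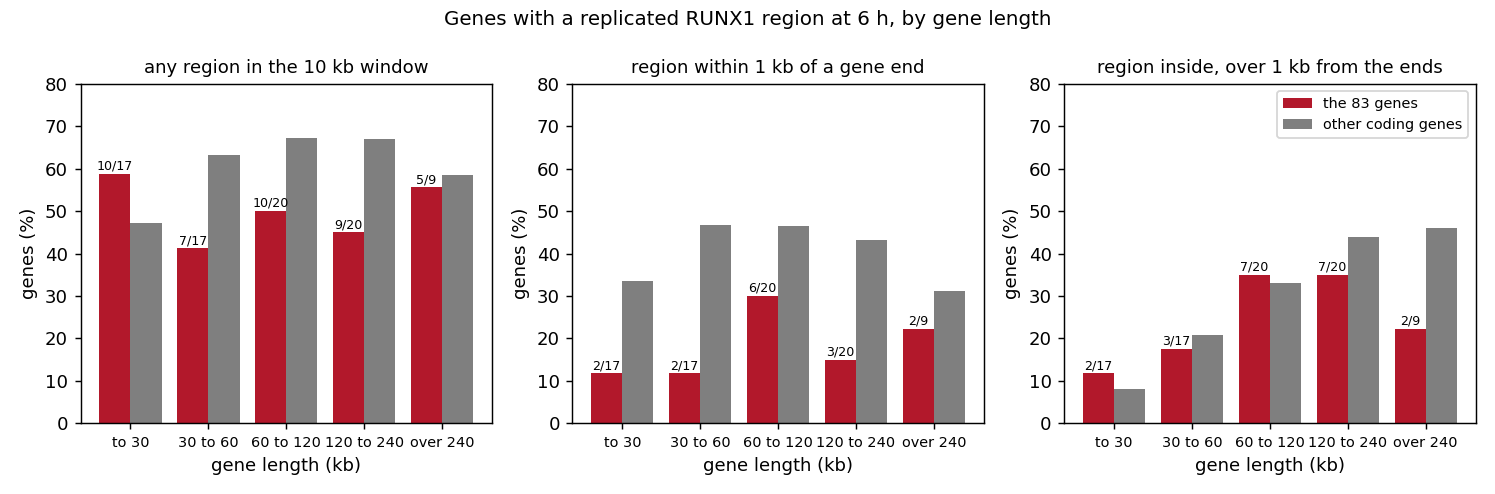
Percent of genes with a replicated 6 h region in the window, with a region within 1 kb of an end, and with a region inside beyond 1 kb, in 5 classes of gene length, for the 83 genes and for other coding genes. Bars for end regions are lower for the 83 genes in every class, at 11.8%, 11.8%, 30%, 15% and 22.2% against 33.5%, 46.8%, 46.6%, 43.2% and 31.1%.

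Promoter sequences show what the bound and unbound gene starts look like. The RefSeq table on GRCm38.p6, with 250 bases before and 50 after each start, held 66 promoters of 60 of the 83 genes, and 23 genes have no entry. A 6 h region overlapped 11 of the 66 (16.7%), beside 36.0% of 21262 coding promoters, and a 0 h region overlapped 0, beside 1.34%. The 11 belong to Col4a1, Col4a2, Col5a1, Col18a1, Col25a1, Lama5, Itga5, Itgav, Itgb1, Itgb5 and Itgb3bp.

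The 250 bases before the start are shown for the 3 bound promoters of highest mean fold over the 6 h libraries, and for 2 fibrillar collagens with no peak in any list, with each CG dinucleotide in capitals. They are Itgb5 (chr16:33829415-33829664, plus strand), Col5a1 (chr2:27886175-27886424, plus strand), Itgb1 (chr8:128685404-128685653, plus strand), Col1a2 (chr6:4505368-4505617, plus strand) and Col3a1 (chr1:45311288-45311537, plus strand). These examples were chosen after their values were seen.
Itgb5: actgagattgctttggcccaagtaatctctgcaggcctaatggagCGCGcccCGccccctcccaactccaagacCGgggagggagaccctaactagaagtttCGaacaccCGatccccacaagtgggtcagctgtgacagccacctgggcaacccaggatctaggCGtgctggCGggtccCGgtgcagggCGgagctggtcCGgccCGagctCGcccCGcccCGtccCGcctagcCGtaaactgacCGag
Col5a1: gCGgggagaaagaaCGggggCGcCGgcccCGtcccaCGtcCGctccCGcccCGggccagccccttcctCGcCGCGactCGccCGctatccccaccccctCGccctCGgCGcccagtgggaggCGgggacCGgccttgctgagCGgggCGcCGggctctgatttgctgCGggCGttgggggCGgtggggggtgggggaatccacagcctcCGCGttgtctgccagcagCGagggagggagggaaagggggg
Itgb1: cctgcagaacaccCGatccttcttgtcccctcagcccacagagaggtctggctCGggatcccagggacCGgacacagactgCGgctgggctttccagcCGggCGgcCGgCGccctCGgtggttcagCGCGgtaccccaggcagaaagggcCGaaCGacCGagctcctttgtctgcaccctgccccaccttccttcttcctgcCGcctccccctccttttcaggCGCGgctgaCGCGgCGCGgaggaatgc
Col1a2: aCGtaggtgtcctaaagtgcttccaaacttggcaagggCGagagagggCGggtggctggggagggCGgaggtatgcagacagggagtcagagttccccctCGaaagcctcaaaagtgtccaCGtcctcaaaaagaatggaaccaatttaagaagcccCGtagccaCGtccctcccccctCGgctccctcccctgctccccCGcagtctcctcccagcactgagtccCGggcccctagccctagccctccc
Col3a1: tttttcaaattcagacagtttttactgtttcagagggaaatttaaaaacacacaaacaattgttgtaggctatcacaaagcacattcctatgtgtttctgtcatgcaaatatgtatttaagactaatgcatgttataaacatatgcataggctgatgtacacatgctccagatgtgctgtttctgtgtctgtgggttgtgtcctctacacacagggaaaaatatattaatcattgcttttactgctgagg
The 3 bound stretches hold 18, 28 and 21 CG dinucleotides, against 11 in Col1a2 and 0 in Col3a1. The Col5a1 region, chr2:27885889-27887147, had folds of 13.4 and 23.0 at 6 h and no peak at 0 h.

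The ratio of observed to expected CG, over the whole promoter entry, differed between bound and unbound promoters of coding genes in general. At a limit of 0.6, chosen after the data were seen, 66.4% of CG-rich and 8.21% of CG-poor coding promoters were overlapped by a 6 h region. Of the 66 promoters here, 20 were CG-rich (30.3%, against 47.7% of all), with a median ratio of 0.454 against 0.567. A region overlapped 9 of the 20 CG-rich (45%, interval 23.1% to 68.5%) and 2 of the 46 CG-poor ones (4.35%, interval 0.531% to 14.8%). The 2 were those of Col18a1 and Itga5. Both rates lie below those of all coding promoters, but both intervals include them. How far CG content accounts for the low share of end sites was not tested.

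RUNX core letters were present in a minority of promoters, bound or not. TGTGGT or TGCGGT, on either strand, occurred in 12 of the 66 promoters (18.2%), beside 21.6% of all coding promoters of this length. It occurred in 3 of the 11 bound promoters (27.3%) and in 9 of the 55 others (16.4%), beside 22.9% and 20.8% for coding genes. The AP-1 letters TGANTCA, which do not contain the RUNX letters, occurred in 4 (6.06%), beside 6.99%. For comparison, 30-base stretches around the letters are shown for the 3 overlapped promoters that hold them, Col4a2 (chr8:11312714-11312743, plus strand), Itgb3bp (chr4:99829112-99829141, minus strand) and Lama5 (chr2:180225828-180225857, minus strand), and for 3 unbound ones, Itga4 (chr2:79255354-79255383, plus strand), Itga8 (chr2:12302038-12302067, minus strand) and Col17a1 (chr19:47692109-47692138, minus strand). Capitals mark the RUNX letters, which read ACCACA or ACCGCA where they lie on the opposite strand.
Col4a2: caccgtcccgggTGCGGTgactctgcgcag
Itgb3bp: tgcttccgcgttTGCGGTttctcagttggt
Lama5: ttgccgggctccTGCGGTgcgcgctgtccc
Itga4: gtgagccactgcACCACAcccaggacccca
Itga8: gcccggtcctagACCGCAagctccgtcctg
Col17a1: ccgtctataaagTGTGGTtcctgaaggcag
All 3 of the first stretches carry the TGCGGT lettering. Those of Col4a2 and Itgb3bp lie inside the 6 h region, but the weak Lama5 region, with folds of 6.58 and 6.77, reaches only the edge of the promoter entry, and the letters lie beyond it. Itga4, Itga8 and Col17a1 carry the letters without a peak in any list. The inner sites with the highest folds could not be read for motifs, because their sequence was not used here.

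Other genes of the matrix and adhesion pathway were described in the same way, from 3 lists. Of 28 partners in basement membranes and matrix, 2 had a 0 h region and 10 (35.7%) a 6 h region, beside the 4.09% and 53.1% above. Of 27 collagen-processing enzymes, 2 had a 0 h region and 21 (77.8%) a 6 h region. Of 32 integrin adaptors and other matrix receptors, 8 (25%) had a 0 h region and 24 (75.0%) a 6 h region. The collagen, laminin and integrin genes, at 49.4%, lay between the matrix partners and the other 2 lists. The lists differ in gene length, with medians of 60.3, 30.7 and 61.6 kb.

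Position differed along with this. A 6 h region lay at a gene end in 5 of the 28 partners (17.9%), close to the 18.1% of the collagen, laminin and integrin genes. It did so in 17 of the 27 enzymes (63.0%) and 17 of the 32 adaptors and receptors (53.1%), beside 37.2% of all coding genes. Among the partners, Smoc2, a calcium-binding basement membrane protein, had 3, 3, 10 and 11 peaks in the 4 libraries and 9 regions, the highest with folds of 36.4 and 51.3. Fn1, which encodes fibronectin, had a single region with folds of 6.30 and 10.3. Among the adaptors, Actn1, encoding an alpha-actinin that links integrins to actin, had 1, 2, 7 and 9 peaks with a highest fold of 27.0 and 45.2. Fermt2, encoding the integrin activator kindlin-2, reached 26.6 and 52.6, and Vcl, encoding vinculin, 25.7 and 48.8. Among the enzymes, the lysyl oxidase-like gene Loxl3 had 1, 1, 4 and 4 peaks with a highest fold of 26.8 and 39.1, and Plod2, a lysyl hydroxylase, reached 19.9 and 29.5. The regions given for Actn1, Vcl and Loxl3 lie outside the gene, with the summit in its window.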

How the data were processed

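RUNX1 ChIP-seq was measured in 4 mouse granulosa cell libraries. The labels describe single-end reads of 75 nt. Per the submitters' processing notes, Bowtie2 2.2.5 and MACS2 (version not given in the sources used here) were used, with the mm10 build, which is GRCm38. Peaks were called per library, as the deposited lists show, each with its own interval and summit position. The fold enrichment of a peak is the authors' ratio of ChIP reads to local background. The deposited −log10 p and −log10 q values and the score are the authors' too. The score was not used. The deposited fold and −log10 p were used to rank peaks within a list, to cut lists to equal length and to solve for the pileup, to a misfit of at most 0.005, and the −log10 q for a filter. Folds of different libraries are set side by side as values only, because library and input depth enter each of them.

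Replicate groups came from the sample titles. Peaks were placed by summit in gene windows of 10 kb, and a replicated region needed 1 bp shared by peaks of both replicates. Percentiles rank the fold within a list. Exact two-sided permutation tests over the libraries compared time points, and lists of genes were described by counts beside all coding genes. Python 3.11.15, numpy 2.4.6, pandas 2.3.3 and SciPy 1.17.1 were used, and the steps were tested on simulated data. Intervals are exact Clopper-Pearson at 95%.

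The genes named with values are those with a replicated 0 h region, the 12 with the strongest 6 h region by mean percentile, the 6 with the most 6 h regions and the 6 with the most per 100 kb among those with at least 3. Genes with no peak in any list are given by name. Of the 83 genes, 1 is not reported here by name. Any further gene was picked after its values were seen. The genes, classes and the 3 related lists were chosen with earlier results of these data known. Alternatives covered the window, the placing of peaks, a −log10 q of at least 20, list length, the overlap, pairing, each library left out, Itgb3bp and neighbouring gene ends. The inputs, and the genome sequence outside the RefSeq promoters, were not analysed here.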

Additional observations from a re-analysis of the deposited data

How the results depend on the processing

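The results are 6 h minus 0 h for peaks near the 83 genes (log2 3.77), list share (0.00803 percentage points), log2 density ratio (0.00459) and share at gene ends (7.69 points), besides the gene and region counts. A window of 1 kb gave a share of -0.0684 and a density of -0.245. A window of 50 kb gave -0.0643 and -0.0651, 10 genes with a 0 h region (12%, beside 8.76%) and 7.61% of 6 h regions at ends (48.6% for other genes). A −log10 q of at least 20 gave a share of -0.168 and a density of -0.425. Lists of equal length gave -0.208 for peaks, -0.0527 for share, -0.181 for density and 0 for the end share, with 3 genes at 0 h (3.61%, beside 2.88%), 3 at 6 h (3.61%, beside 3.21%), 33.3% of 6 h regions (1 of 3) overlapping a 0 h peak (58.3% for coding genes) and 0% at ends (44.1% for other genes). Removing peaks at an end of another coding gene, unless also at an end of one of the 83, an alternative chosen after seeing the data like the removal of Itgb3bp, the CG limit and every setting of the share of regions at ends, gave -0.0437 for share and -0.145 for density. With ends of 5 kb the end share differed by 22.3 points. The signs of the list share and density differences thus depend on these settings, and the cause was not tested.

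Leaving out 1 library at a time gave 2.89 to 4.65 for peaks, -0.00716 to 0.0232 for share, -0.0705 to 0.0797 for density and -1.13 to 16.5 for the end share. It gave 5 to 14 genes at 0 h (14 without 0 h replicate 1, 16.9%, beside 15.1% of coding genes), 41 to 52 at 6 h (52 without 6 h replicate 1, 62.7%, beside 62.5%), an overlap of 5.68% (without 0 h replicate 2, beside 4.64%) to 12.5% (without 0 h replicate 1, beside 16.6%) and 15.9% to 16.9% of regions at ends. A lone remaining library has no spread of its own, so these are values with no test. The replicate numbers did not pair the samples: deviations of same-numbered libraries had r = -0.0238 over 21896 coding genes. With the replicate block the differences are the same by construction (3.77, 0.00803, 0.00459 and 7.69), and their exact permutation p was 0.5, 0.5, 1 and 1, where 0.5 is the smallest possible. Of 192 values for named genes under 12 alternatives, 154 stayed within 1.5 times and 38 moved farther, 16 of these with lists of equal length. Col11a2 had 0 regions with a window of 1 kb. The list of 948 peaks, the shortest, limits the 0 h counts.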

Other observations

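Syndecan-4, encoded by Sdc4 and a coreceptor that works beside integrins at the cell surface, was among the related genes with the most binding for their length. Sdc4 had 2 and 3 peaks at 0 h and 5 and 7 at 6 h, with 5 replicated 6 h regions, the highest having folds of 29.7 and 44.8. Ptk2b, which encodes a kinase of the focal adhesion family, had 0 and 1 peaks at 0 h and 1 and 4 at 6 h, with folds of 33.5 and 51.4 at its single region. Parvb, encoding a parvin adaptor, had 1 peak in each 0 h list and a replicated 0 h region, but 0 and 2 peaks at 6 h and no replicated 6 h region.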
